A study of Homo sapiens with 58 samples.

Results

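Basal B breast cancer cell lines, which include the claudin-low lines, were compared with basal A lines at the level of messenger RNA, both being published classes of mostly triple-negative lines. The 8 basal B lines were MDAMB231, BT549, HS578T, MDAMB436, MDAMB157, HCC1395, HCC38 and CAL120. The 7 basal A lines were HCC70, HCC1143, HCC1937, HCC1806, HCC1187, MDAMB468 and BT20. These 15 lines are part of a panel of 58 established human lines labelled as breast cancer, of which some, such as MCF12A, are known as immortalised mammary epithelial lines, each grown untreated and measured on 1 custom Affymetrix array, and the other 43 lines were used only where stated. The labels name the lines and give no class, so the grouping rests on published knowledge of the lines. Each line stands for 1 tumour and is represented by 1 culture, so lines served as the replicates and p-values measure the spread between lines. The published classes were themselves drawn from expression profiles of such lines, so a difference in epithelial and mesenchymal genes is in part what defines them. Values are deposited log2 signals after RMA, the robust multi-array average, and a difference is always basal B minus basal A on that scale, given with its standard error (SE). A difference was called where limma's Benjamini-Hochberg adjusted p over all genes tested was under 0.05.

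Epithelial cells are held together by tight junctions, built around claudins, and by adherens junctions, built around E-cadherin. In the epithelial-to-mesenchymal transition these junctions are lost while vimentin filaments and a fibroblast-like matrix appear. The repressors ZEB1, ZEB2, SNAI1, SNAI2 and TWIST1 drive the transition, in part by binding E-box elements with the core CAGGTG in promoters of epithelial genes. The microRNAs of the miR-200 family and miR-205 target the transcripts of ZEB1 and ZEB2, and ZEB1 in turn represses the miR-200 genes. Claudin-low tumours and lines are known for low claudins and E-cadherin together with mesenchymal and stem-like features.

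Sequences of the microRNAs whose host transcripts differed between the classes are shown because their seed, bases 2 to 8 from the 5′ end and in capitals here, sets the targets. They are RefSeq entries on GRCh38.p14, plus strand. They lie at chr12:6963742-6963764 for miR-200c-3p, chr12:6964155-6964176 for miR-141-3p and chr1:209432166-209432187 for miR-205-5p.
hsa-miR-200c-3p: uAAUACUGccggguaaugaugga
hsa-miR-141-3p: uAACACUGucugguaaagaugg
hsa-miR-205-5p: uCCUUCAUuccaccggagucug
The 3 seeds differ, so the microRNAs fall into 3 seed groups.

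Promoters of 3 genes that were lower in basal B are shown because they hold the E-box hexamer. The hexamer CAGGTG was searched on both strands, so CACCTG, its reverse complement, was counted too, in the 250 bases before the annotated start (RefSeq, GRCh38.p14). Each line gives the gene's own strand 5′ to 3′ with the hexamers in capitals. The window of CRB3, which encodes the Crumbs polarity protein 3, is chr19:6464021-6464270 on the plus strand. That of FUT3, the Lewis blood group fucosyltransferase, is chr19:5851450-5851699 on the minus strand. That of MIR200CHG, the host transcript of miR-200c and miR-141, is chr12:6962995-6963244 on the plus strand.
CRB3: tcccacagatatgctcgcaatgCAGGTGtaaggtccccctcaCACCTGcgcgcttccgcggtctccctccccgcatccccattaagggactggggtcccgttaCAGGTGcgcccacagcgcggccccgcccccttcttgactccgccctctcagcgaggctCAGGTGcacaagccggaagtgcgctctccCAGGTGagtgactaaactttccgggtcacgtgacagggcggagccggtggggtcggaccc
FUT3: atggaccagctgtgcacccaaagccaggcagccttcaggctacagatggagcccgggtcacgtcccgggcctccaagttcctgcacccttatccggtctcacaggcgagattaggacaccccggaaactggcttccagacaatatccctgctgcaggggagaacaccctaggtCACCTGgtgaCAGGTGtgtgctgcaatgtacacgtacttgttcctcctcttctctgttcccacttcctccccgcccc
MIR200CHG: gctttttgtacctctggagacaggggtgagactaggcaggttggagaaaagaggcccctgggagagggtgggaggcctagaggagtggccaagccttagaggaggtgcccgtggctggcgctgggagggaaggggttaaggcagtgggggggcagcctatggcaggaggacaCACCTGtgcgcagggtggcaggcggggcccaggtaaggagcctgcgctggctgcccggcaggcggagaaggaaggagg
CRB3 had 5 hexamers, FUT3 had 2 and MIR200CHG had 1. Of all 35116 promoters in the table, 17.5% held at least 1 hexamer in this window, and 163 held 3 or more. Among the genes tested that had a single promoter in the table, 37 of 73 called lower in basal B held one (50.7%), as did 4 of 37 called higher (10.8%) and 1238 of all 7678 (16.1%). Of all genes tested, 1.10% were called lower and 0.601% higher. These shares describe letters in a window and do not show binding. Of the other lower genes named here that have 1 promoter in the table, RAB25, ELF3, DAPP1, RASEF, VGLL1, FOXA1 and S100A14 held 1 hexamer and LCN2 held 2. CLDN4, LSR, GRHL1, KLK5, ANO1, MIR205HG, IVL and SCEL held 0. LINC01444, which was higher in basal B, held 3.

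The 4 marker genes followed the published classes in most lines, with HCC38 and HCC1143 as exceptions. In cultures measured as a whole, fewer expressing cells and less RNA per cell cannot be told apart. ZEB1, a repressor of epithelial genes, had a lowest, median and highest signal of 4.03 (HCC38), 10.23 and 11.20 (HS578T) in basal B, against 2.44 (HCC1187), 2.89 and 7.21 (HCC1143) in basal A. Its difference was 5.94 (SE 0.98, adjusted p = 0.00741), which is 61.2-fold. Its 4 probe sets had differences of 0.21 to 5.94, and their mean gave 3.27 (adjusted p = 0.00735). Without HCC38 the 7 other basal B lines all lay above every basal A line, and the difference was 6.72 (adjusted p = 2.24e-05). CDH1, which encodes E-cadherin, ranged over 4.01 (MDAMB436), 6.01 and 12.61 (HCC38) in basal B, against 11.83 (HCC1187), 12.09 and 13.05 (BT20) in basal A. CDH1 was lower in basal B by -5.17 (SE 1.08, adjusted p = 0.0256), and by -5.95 without HCC38 (adjusted p = 0.000984). The CDH1 signal of HCC38 lay inside the basal A range, and every other basal B line lay below it. CLDN7, the claudin 7 of tight junctions, had 4.32 (MDAMB436), 5.72 and 11.54 (HCC38) in basal B, against 10.86 (HCC1187), 12.32 and 12.74 (HCC70) in basal A. Its difference was -5.53 (SE 0.91, adjusted p = 0.00741), and -6.23 without HCC38 (adjusted p = 4.48e-05). VIM, which encodes the filament protein vimentin, was at 12.83 (HCC38), 13.46 and 13.53 (MDAMB157) in basal B. In basal A it was at 8.06 (HCC1806), 10.11 and 13.55 (HCC1143). The VIM difference of 2.78 (SE 0.69) missed the threshold with all 15 lines (adjusted p = 0.0527) and passed it without HCC38 (2.85, adjusted p = 0.0435) or without HCC1143 (3.27, adjusted p = 0.0106). VIM was thus high in every basal B line and spread widely among basal A lines, of which HCC1143 was as high as any basal B line.

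**Figure D1:**
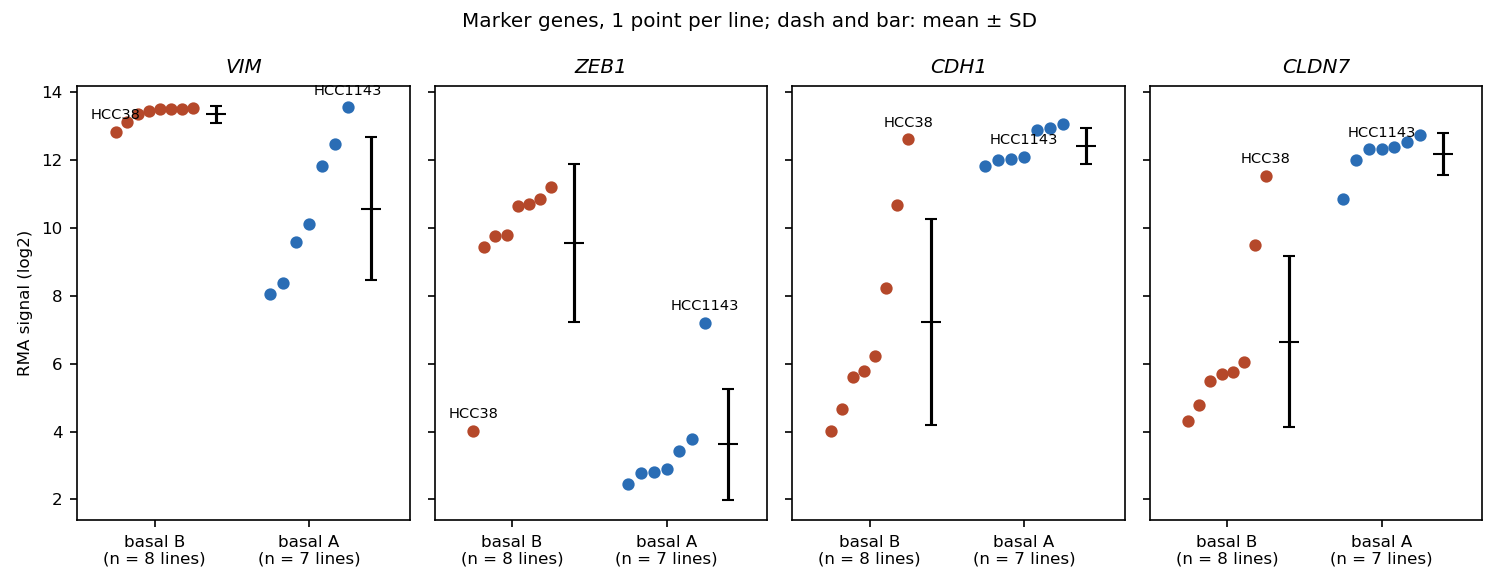
RMA signal (log2, vertical axis) of VIM, ZEB1, CDH1 and CLDN7 in the 8 basal B lines (left in each panel) and the 7 basal A lines (right), 1 point per line, with group mean ± SD. HCC38 lies with the basal A lines for ZEB1 (4.03), CDH1 (12.61) and CLDN7 (11.54), and HCC1143 is the basal A line with the highest VIM (13.55) and ZEB1 (7.21).

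The array labelled HCC38 therefore went against its class in 3 of the 4 markers, and results are given with and without it below. HCC38 was singled out by its values in these same data. Adjusted p-values without it, above and below, are therefore descriptive, and leaving it out favours genes in which it went against its class. Over all detected genes, each centred on its median, HCC38 had a mean Pearson r of -0.037 with the other basal B lines and of 0.119 with the basal A lines, and its closest line was HCC1937 (r = 0.207). The 7 other basal B lines had mean r values of 0.118 to 0.247 with basal B lines and of -0.130 to -0.060 with basal A lines. These r values are across genes, which are not independent, and serve as description. HCC38 was not epithelial in every gene: VIM was at 12.83, AXL at 11.71 and DDR2 at 11.11 in this line. Among basal A lines HCC1143 and HCC1806 were least like their class, with mean r values of 0.061 and 0.078 with basal A. HCC1143 combined epithelial CDH1 (12.09) and CLDN7 (12.32) with AXL at 12.94 and TWIST1 at 11.64. A further line of the panel, MB157, is reported to come from the same patient as MDAMB157 and was outside the comparison. It had CDH1 at 12.76, CLDN7 at 12.81 and ZEB1 at 2.87, values like those of basal A lines and unlike MDAMB157 (ZEB1 9.42), although its r with MDAMB157 was 0.349. Whether any array carries the name of another culture was not tested.

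**Figure D2:**
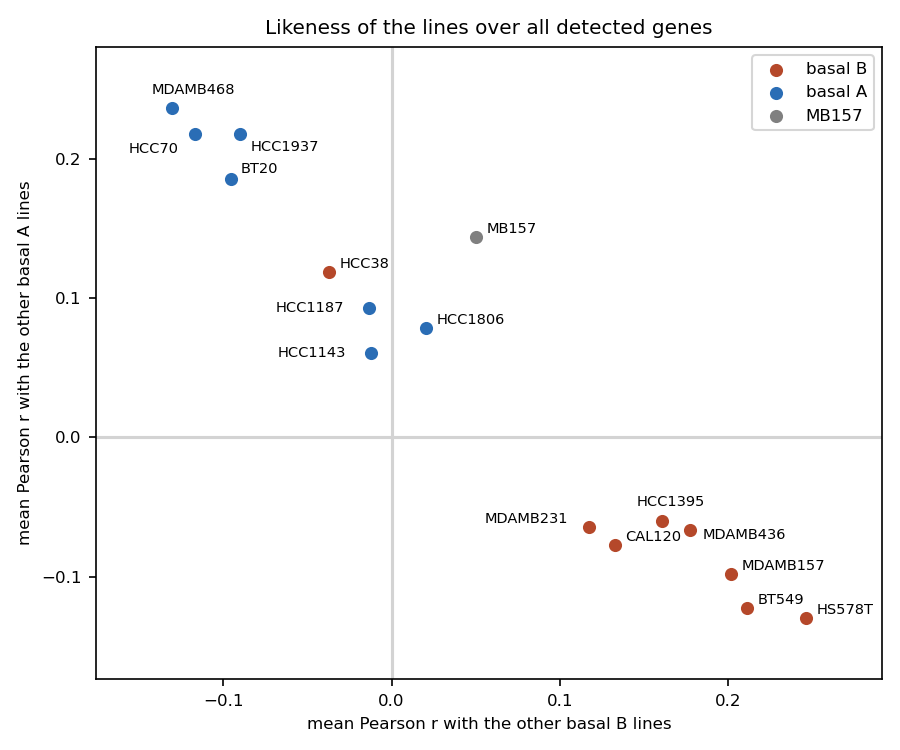
Mean Pearson r of each line with the other basal B lines (horizontal axis) and with the other basal A lines (vertical axis), over all detected genes centred on their medians, 1 point per line. Of the 8 basal B lines 7 lie at the lower right, while HCC38 (-0.037, 0.119) and the panel line MB157 (0.050, 0.144) lie nearer to the basal A lines.

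Array quality overlapped between the classes. Array medians were 5.48 to 5.58 in basal B and 5.44 to 5.53 in basal A (exact permutation test, 2-sided p = 0.292, n = 8 and 7). The spread of each array around the panel's per-probe medians, as an interquartile range, was 0.487 to 0.573 in basal B and 0.506 to 0.563 in basal A (exact permutation test, 2-sided p = 0.601).

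Of 13322 genes tested, 80 were higher in basal B (0.601%) and 146 were lower (1.10%). At these shares a count of 0 or 1 in any gene list below says little. Genes were tested only if above the array median in at least 3 of the 15 lines. A gene high in 1 class and low in the other thus entered through that class, which largely set the sign of its difference. Counts of differences above or below 0 in the lists below are therefore descriptive. The median difference over all genes tested was -0.01. Without HCC38, 189 of 13235 genes were higher (1.43%) and 339 lower (2.56%), and all 226 genes called with HCC38 were among them in the same direction. The fully separated genes were few: with all 15 lines the classes did not overlap in 22 genes with basal B above (0.165%) and in 33 with basal B below (0.248%). Without HCC38 these numbers were 52 and 141. Of the 146 genes called lower, HCC38 lay within the basal A range in 99 and was the basal B line nearest to basal A in 98. Of the 80 genes called higher, it lay within the basal A range in 27. HCC1143 was the basal A line nearest to basal B in 43 of the lower genes and 32 of the higher ones. Some calls described below were lost with fewer lines: leaving out 1 of the 15 lines at a time ended the call of JUP in 12 of the 15 cases, of EPCAM, PKP3, AXL and BTBD19 in 11, and of CLDN4, SPARC, LCN2 and CCL28 in 10. The call was lost in 8 cases for ELF3 and MYL9, in 7 for CDH1 and ERBB3, in 6 for MIR200CHG, in 5 for TGFB1I1 and WNT7B, in 4 for LINC01444 and SCEL and in 1 for S100A14 and IVL. Without MDAMB468 the counts were 34 higher and 66 lower.

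**Figure D3:**
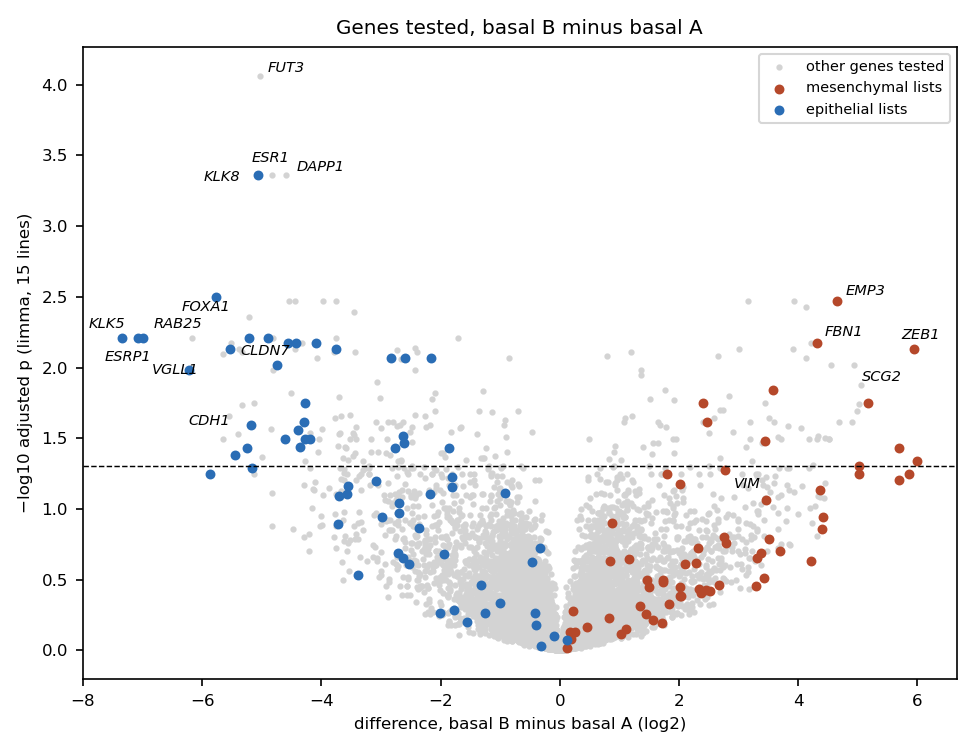
Difference basal B minus basal A (log2, horizontal axis) against −log10 of limma's adjusted p over 15 lines (vertical axis), 1 point per gene tested, with the members of 4 epithelial lists in blue and of 4 mesenchymal lists in red, and the threshold of 0.05 dashed. The blue points past the threshold all lie left of 0 and the red ones right of 0, and FUT3 has the smallest adjusted p (8.64e-05).

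Regulators of the epithelial state were lower in basal B. Of 10 tested transcription and splicing factors of the epithelium, 7 were called lower and 0 higher (median difference -3.58), with the same counts without HCC38. ESRP1, which directs epithelial splice forms of CD44 and of fibroblast growth factor receptors, had 3.02 (MDAMB231), 3.88 and 12.38 (HCC38) in basal B, against 11.68 (HCC1806), 12.17 and 12.58 (HCC1937) in basal A. The ESRP1 difference was -7.08 (SE 1.11, adjusted p = 0.00618) and became -8.12 without HCC38. Apart from HCC38 the classes were separated in ESRP1, with the next basal B line at 6.26. GRHL2, a grainyhead factor that activates CDH1 and claudin genes, had 4.04 (MDAMB157), 5.51 and 9.59 (HCC38) in basal B, against 8.74 (HCC1806), 9.88 and 10.07 (HCC70) in basal A. It was lower by -3.76 (SE 0.62, adjusted p = 0.00741). OVOL2, a zinc finger repressor of ZEB1, fell too, with a median of 5.92 in basal B and of 9.36 in basal A (difference -2.83, adjusted p = 0.00857). GRHL1 (-4.28, adjusted p = 0.0179) and the ETS factor ELF3 (-4.39, adjusted p = 0.0277) were also lower. For ELF3 the lowest basal A line, HCC1806 (7.61), lay well under the other basal A lines.

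The host transcripts of the microRNAs shown above moved with these factors and were chosen after their values were seen. MIR200CHG had 4.61 (MDAMB231), 5.01 and 8.69 (HCC38) in basal B, against 7.22 (HCC1143), 8.21 and 9.56 (HCC1937) in basal A. The MIR200CHG difference was -2.79 (SE 0.58, adjusted p = 0.0242). The arrays measure the host transcript and not the mature microRNA, so the level of miR-200c and miR-141 themselves is not known from these values. MIR205HG, the host of miR-205, had 3.07 (BT549), 3.79 and 9.87 (HCC38) in basal B, against 7.36 (HCC1187), 10.88 and 12.21 (HCC1806) in basal A. The MIR205HG difference was -6.17 (SE 0.96, adjusted p = 0.00618). In both hosts HCC38 lay among the basal A lines, and the other basal B lines lay below every basal A line.

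Tight junction genes were lower in basal B. Of 15 tested members of the tight junction and polarity list, 7 were called lower with HCC38 and 11 without it, and 0 were called higher in either case (median difference -2.59). CLDN4, a claudin of glandular epithelia, ranged over 3.67 (HS578T), 4.86 and 10.78 (HCC38) in basal B, against 9.34 (HCC1806), 10.44 and 11.78 (HCC70) in basal A (difference -4.62, SE 1.01, adjusted p = 0.0320). MDAMB231 and HCC38 were the basal B lines above 9 in CLDN4. CLDN3 differed by -1.94 and missed the threshold with all 15 lines (adjusted p = 0.207), since HCC38 was at 10.06, while it passed without HCC38 (-2.44, adjusted p = 0.0343). CLDN8, a claudin of tight epithelia, fell to a median of 3.05 in basal B, against 9.30 in basal A (-5.21, adjusted p = 0.00618). MARVELD3, a tight junction membrane protein, differed by -4.89 (adjusted p = 0.00618), the polarity gene CRB3 by -2.59 and LSR, which organises junctions where 3 cells meet, by -2.17 (adjusted p = 0.00857 each). HCC38 was the highest basal B line for CLDN3, CLDN4, CLDN7, CLDN8, MARVELD3, CRB3 and LSR.

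Adherens junctions and desmosomes showed the same direction with fewer calls. All 18 tested members had a difference below 0, and 4 were called lower, or 9 without HCC38 (median difference -2.09). EPCAM, an epithelial adhesion molecule, had 5.19 (BT549), 8.31 and 13.20 (HCC38) in basal B, against 12.62 (HCC1187), 12.86 and 13.18 (HCC1806) in basal A (difference -4.35, SE 0.99, adjusted p = 0.0363). JUP, the plakoglobin shared by both junction types, differed by -2.61 (adjusted p = 0.0341) and PKP3, a desmosomal plakophilin, by -1.87 (adjusted p = 0.0371). CDH3, the P-cadherin of basal and myoepithelial cells, missed the threshold with all 15 lines (-3.56, adjusted p = 0.0690) and passed without HCC38 (-4.17, adjusted p = 0.00803). It also passed without BT549 (-4.03, adjusted p = 0.0488).

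Surface proteases and apical trafficking genes of the epithelium held the most lower calls of any list. Of 21 tested, 13 were called lower, or 20 without HCC38 (median difference -4.42). KLK5, a kallikrein protease of stratified epithelia, was at 3.29 (MDAMB157), 4.61 and 13.35 (HCC38) in basal B, against 12.38 (HCC1143), 13.10 and 13.72 (HCC1937) in basal A. The difference was -7.34 (SE 1.14, adjusted p = 0.00618). RAB25, a small GTPase of apical recycling, was at 3.26 (MDAMB231), 4.24 and 12.43 (HCC38) in basal B, against 11.31 (HCC1143), 12.53 and 12.87 (HCC70) in basal A (-6.99, SE 1.06, adjusted p = 0.00618). In both genes HCC38 stood within the basal A range and the next basal B line was at 6.15 or below. ST14, which encodes the surface protease matriptase, differed by -5.77 (adjusted p = 0.00319) and PRSS8, the prostasin that acts with it, by -4.57 (adjusted p = 0.00665). KLK8, another kallikrein, was 1 of 3 members without overlap, beside SPINT1, an inhibitor of matriptase, and AP1M2, an epithelial clathrin adaptor. The basal B lines ended at 7.30 (HCC38) in KLK8 and the basal A lines began at 8.55 (HCC1806), with a difference of -5.06 (adjusted p = 0.000437).

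The keratins tested gave 0 calls with all 15 lines, but many keratins were missing. Of 9 basal keratins listed 2 were tested, and of 5 simple keratins 4 were. KRT6A, KRT6B, KRT14, KRT16, KRT17, KRT81 and KRT8 were not analysed, and KRT6C was too low to test. Of 2 basal keratins tested, both were lower without HCC38, and KRT5 also passed without HCC1143 (-5.80, adjusted p = 0.0483). KRT5, the defining keratin of basal cells, had 3.89 (MDAMB436), 5.93 and 12.61 (HCC1395) in basal B, against 6.04 (HCC1143), 12.53 and 13.49 (HCC1806) in basal A (-4.82, SE 1.56, adjusted p = 0.132). HCC1395 and HCC38 lay near the basal A median of KRT5, and HCC1143 was low. KRT15 behaved alike in that HCC38 (12.45) was far above the other basal B lines (-2.63, adjusted p = 0.163, and adjusted p = 0.00679 without HCC38). Of 4 simple keratins tested, 2 were lower without HCC38, KRT7 (-3.01, adjusted p = 0.0270) and KRT23 (-4.61, adjusted p = 0.0429). With all 15 lines KRT7 differed by -2.65 (adjusted p = 0.0822, and 0.0473 with array quality as a term) and KRT23 by -3.76 (adjusted p = 0.188), while KRT18 (-0.71) and KRT19 (-2.54) missed the threshold in both cases.

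**Figure D4:**
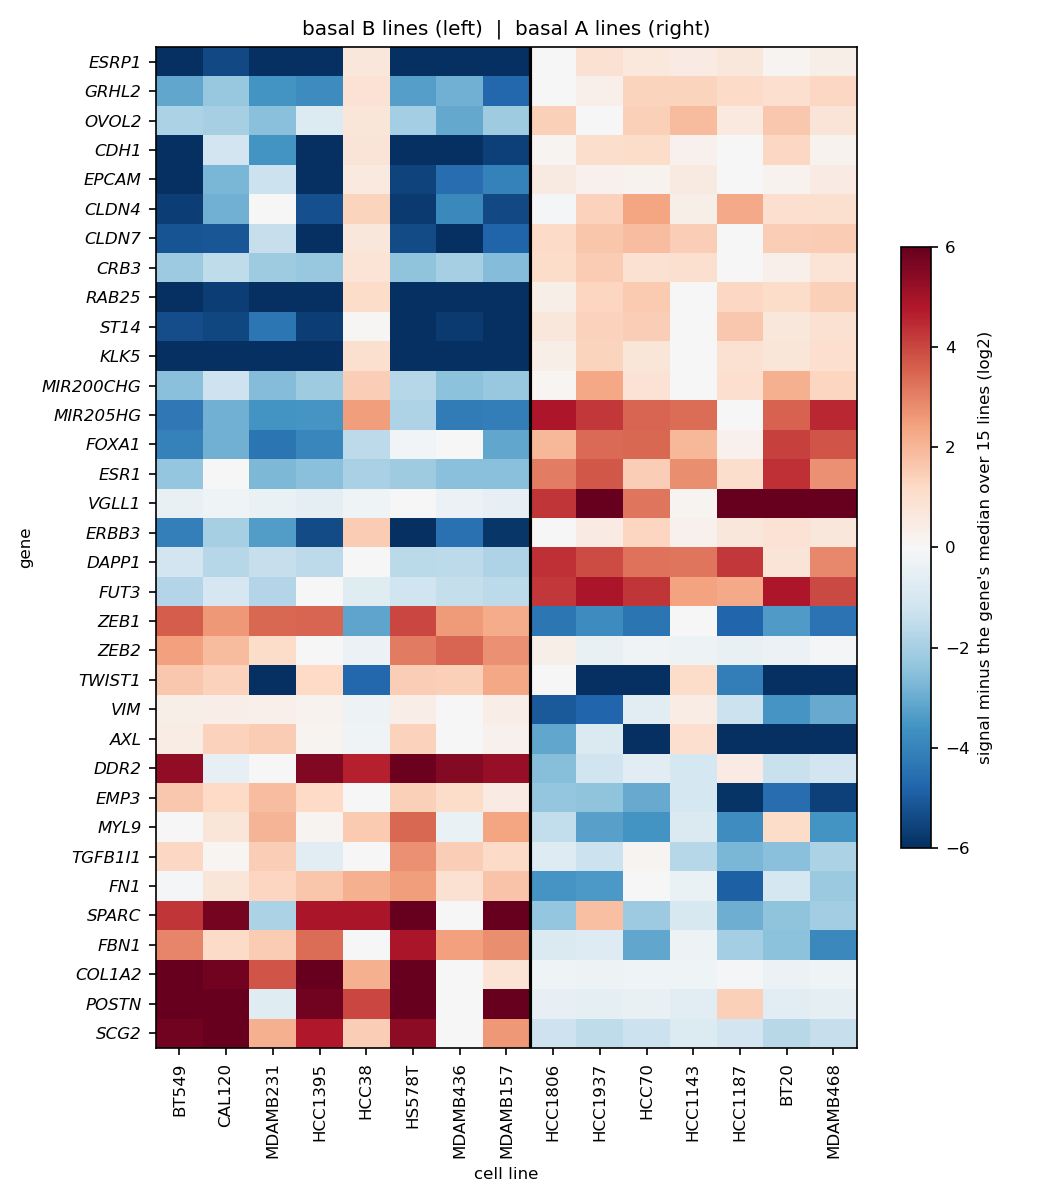
Signal minus the gene's median over the 15 lines (log2, colour scale from -6 to 6) for 34 genes named in the text (rows), in basal B lines left of the vertical rule and basal A lines right of it. HCC38 shows basal A colours in the epithelial rows from ESRP1 to MIR205HG, and HCC1143 shows basal B colours for TWIST1, VIM and AXL.

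Among the epithelial-to-mesenchymal transition factors, ZEB1 passed the test with all 15 lines. All 9 tested had a difference above 0 (median 2.46), and 1 was called, ZEB1, with ZEB2 and PRRX1 added without HCC38. ZEB2, the paralogue of ZEB1, had 6.04 (HCC38), 8.60 and 9.88 (MDAMB436) in basal B, against 5.95 (HCC1937), 6.08 and 6.77 (HCC1806) in basal A (2.02, adjusted p = 0.0661, and 2.33 with adjusted p = 0.0117 without HCC38). With the mean of its 4 probe sets, which differed by 1.64 to 5.14, ZEB2 also passed with all 15 lines (2.97, adjusted p = 0.0148). PRRX1, a homeobox factor of mesenchyme, was at 3.67 in MDAMB231 and 12.24 in HS578T, the ends of the basal B range, and at 3.06 to 6.73 in basal A (5.01, adjusted p = 0.0501, and 0.0240 with array quality as a term). TWIST1 differed by 4.21 but varied within both classes: it was 3.53 in MDAMB231 and 12.86 in MDAMB157, against 3.32 in MDAMB468 and 11.64 in HCC1143 (adjusted p = 0.234). MDAMB231 was thus low in TWIST1 and PRRX1 and high in ZEB1 (10.65).

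The mesenchymal surface and cytoskeletal genes that could be tested had positive differences. Of 19 on the array S100A4 was too low to test, at 3.63 to 4.18 in basal B and 3.64 to 4.12 in basal A. All 18 tested members of the adhesion and cytoskeleton list had a difference above 0 (median 1.91), and AXL and EMP3 were called, joined by VIM, CDH11 and CAVIN1 without HCC38. EMP3, a small membrane protein, had 10.82 (HCC38), 12.02 and 12.65 (MDAMB231) in basal B, against 4.93 (HCC1187), 7.79 and 9.76 (HCC1143) in basal A. The classes did not overlap, and EMP3 rose by 4.66 (SE 0.64, adjusted p = 0.00341). AXL, a receptor tyrosine kinase for GAS6 that is linked to mesenchymal states, had 11.71 (HCC38), 12.25 and 13.45 (MDAMB231) in basal B, against 2.75 (HCC1187), 4.52 and 12.94 (HCC1143) in basal A. The basal B lines lay within a narrow band (SD 0.70) while basal A spread over the whole scale (SD 4.33), and the difference was 5.998 (SE 1.43, adjusted p = 0.0455). GJA1, the gap junction protein connexin 43, differed by 5.70 without passing (adjusted p = 0.0620), and passed without HCC1806 (6.998, adjusted p = 0.00652), a basal A line at 12.30. CAVIN1, a coat protein of caveolae, differed by 1.80 (adjusted p = 0.0564, and 0.0489 without HCC38).

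Contractile genes of the actin cytoskeleton gave 2 calls. Of 10 tested, 2 were higher with and without HCC38 (median difference 1.72). MYL9, a regulatory light chain of myosin, had 9.33 (MDAMB436), 10.86 and 13.18 (HS578T) in basal B, against 6.0 (HCC1187), 6.45 and 10.83 (BT20) in basal A (3.44, SE 0.77, adjusted p = 0.0333). TGFB1I1, a focal adhesion protein also known as Hic-5, rose by 2.47 (SE 0.51, adjusted p = 0.0243). ACTA2, the smooth muscle actin, differed by 3.46 and missed the threshold (adjusted p = 0.0860), with CAL120 (5.37) as low as basal A lines, and passed without CAL120 (4.04, adjusted p = 0.0325).

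Matrix genes held the most higher calls of any list. All 26 tested collagens and matrix glycoproteins had a difference above 0 (median 2.77), and 5 were called higher, or 7 without HCC38. Members low in every basal A line, such as COL1A2 and POSTN, entered the test only through basal B lines, so this count of signs is descriptive. FBN1, the fibrillin of elastic microfibrils, had 8.23 (HCC38), 10.85 and 13.13 (HS578T) in basal B, against 4.35 (MDAMB468), 6.19 and 7.93 (HCC1143) in basal A. The 2 classes did not overlap, and FBN1 rose by 4.31 (SE 0.69, adjusted p = 0.00665). FN1, which encodes fibronectin, had 10.61 (BT549), 12.21 and 13.25 (HS578T) in basal B, against 5.85 (HCC1187), 8.50 and 10.73 (HCC70) in basal A (3.58, SE 0.67, adjusted p = 0.0145). SPARC, a collagen-binding matricellular protein, differed by 5.70 (SE 1.30, adjusted p = 0.0371), although MDAMB231 (3.49) and MDAMB436 (5.40) lay in the basal A range. COL8A1, a short-chain collagen, rose by 5.17 (adjusted p = 0.0179) and LOXL2, a collagen crosslinker, by 2.40 (adjusted p = 0.0179).

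Fibroblast-type genes varied widely within basal B. COL1A2, a chain of type I collagen, ranged over 4.61 (MDAMB436), 9.40 and 13.84 (HS578T) in basal B, against 4.26 (BT20), 4.33 and 4.51 (HCC1187) in basal A. Every basal B line was above every basal A line, MDAMB436 narrowly so, and the adjusted p was 0.0566 with all 15 lines, 0.0343 without HCC38 and 0.0321 with the mean of its probe sets. POSTN, which encodes periostin, was at 2.51 in MDAMB231, 9.98 at the median and 13.33 in HS578T in basal B, and at 2.58 to 4.66 in basal A (5.86, adjusted p = 0.0567). POSTN passed without MDAMB231 (adjusted p = 0.017), without MDAMB436 (adjusted p = 0.0263) or without HCC38 (adjusted p = 0.0442). Of 10 fibroblast markers tested, 0 were called with all 15 lines and 2 without HCC38 (median difference 2.55). The summed level of these markers, as the mean distance from each gene's median, was -0.33 to 6.86 in the 7 basal B lines other than HCC38, 0.72 in HCC38 and -0.69 to 0.82 in basal A, with HS578T highest. Whether fibroblasts from the source tumour contribute to any of these cultures was not tested. Of 9 blood markers on the array, 3 were tested and 0 called. The defining leukocyte marker PTPRC was at 3.33 to 4.13 in basal B and 3.11 to 4.77 in basal A, and the T cell marker CD3E was at 2.97 to 3.63 in basal B and 3.13 to 4.0 in basal A. Single lines were high in others, such as HCC1806 in HCLS1 (10.78) and HCC1187 in IKZF1 (9.97), both chosen after their values were seen. The mean distance of the 3 tested markers from their medians was -1.35 to 2.81 (MDAMB157) in basal B and -1.85 to 1.66 in basal A.

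Matrix proteases and the plasminogen system gave 0 calls in 18 genes with all 15 lines and 1, TIMP2, without HCC38 (0.87, adjusted p = 0.0491) or with a stricter filter on low signals (adjusted p = 0.0489), although the median difference was 1.996. TIMP2, an inhibitor of matrix metalloproteinases, had 12.78 to 13.43 in basal B and 11.28 to 12.99 in basal A. Of 13 basement membrane and epithelial integrin genes 0 were called with all 15 lines, and ITGB6, the integrin beta 6 chain of epithelia, was lower without HCC38 (-5.51, adjusted p = 0.0135), where HCC38 was at 11.74.

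**Figure D5:**
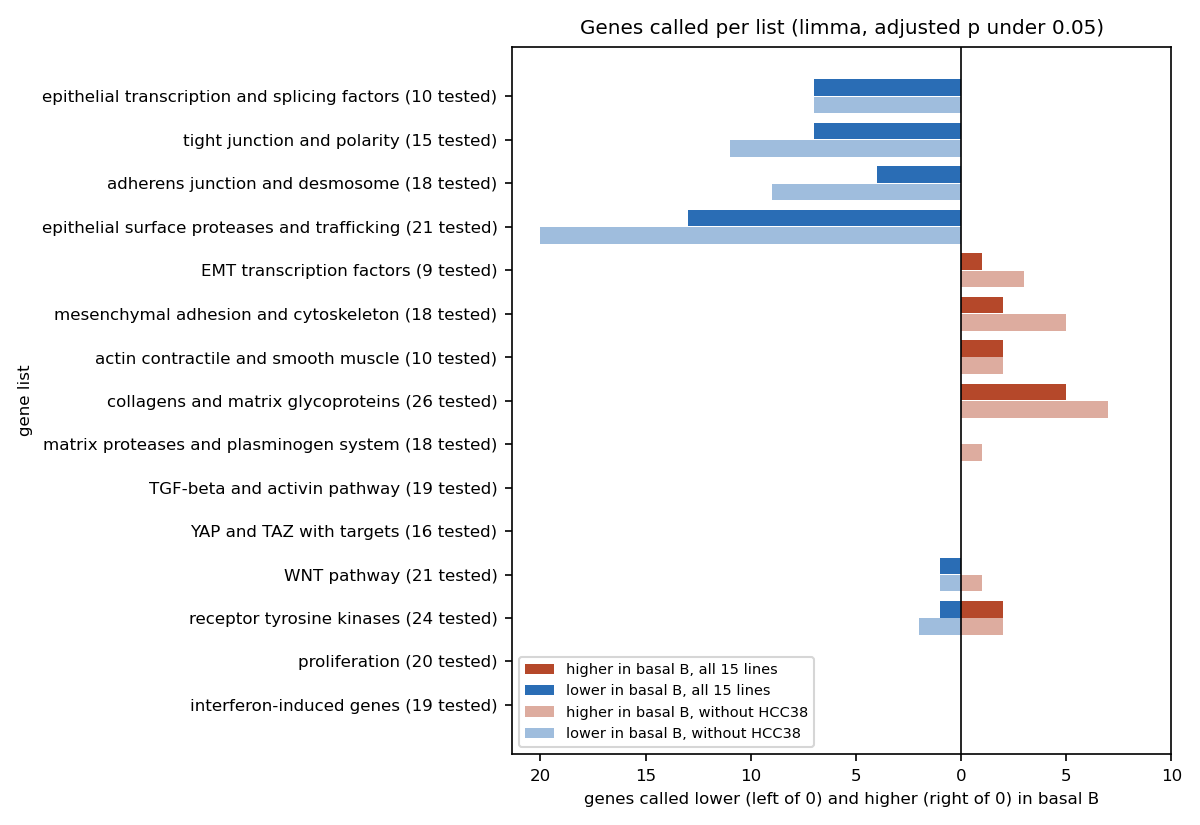
Number of genes called lower (left of 0) and higher (right of 0) in basal B in 15 gene lists (rows, with the number tested), for all 15 lines (dark bars) and without HCC38 (pale bars). The 4 epithelial lists hold lower calls and the mesenchymal lists higher ones, while proliferation and interferon genes hold none.

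The 10 lowest differences among called genes without overlap were in genes of varied function. VGLL1, a TEAD cofactor, was at 3.98 to 4.54 in all 8 basal B lines, against 4.70 (HCC1143), 10.76 and 12.58 (BT20) in basal A (-5.66, SE 0.96, adjusted p = 0.00797). HCC38 lay with the other basal B lines in VGLL1 (4.26), and only HCC1143 of basal A was near that level. FUT3 had 3.26 (BT549), 3.71 and 5.03 (HCC1395) in basal B, against 7.32 (HCC1187), 9.25 and 9.94 (HCC1937) in basal A (-5.04, SE 0.44, adjusted p = 8.64e-05), and its value hardly changed without HCC38 (-5.10). DAPP1, an adaptor of phosphoinositide signalling, had 3.10 (MDAMB157), 3.38 and 4.93 (HCC38) in basal B, against 5.71 (BT20), 8.20 and 9.29 (HCC1806) in basal A (-4.59, SE 0.48, adjusted p = 0.000434), although 1 of its 4 probe sets differed by 0.10. ANO1, a calcium-activated chloride channel, fell by 4.54 (by 2.44 with the mean of its 2 probe sets) and EPPK1, a keratin-binding plakin, fell by 4.44 (adjusted p = 0.00341 each). RASEF, a Rab-like GTPase (-4.51, adjusted p = 0.0151), and ERP27, a protein of the endoplasmic reticulum (-4.82, adjusted p = 0.0105), completed the 10 lowest with KLK8, FOXA1 and ESR1.

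The 10 highest differences among called genes without overlap included EMP3 and FBN1, described above, and 8 others. SCG2, a secretogranin of secretory granules, had 4.43 (MDAMB436), 8.15 and 11.33 (CAL120) in basal B, against 2.77 (BT20), 3.15 and 3.62 (HCC1143) in basal A (4.93, SE 0.87, adjusted p = 0.00957). PID1, a phosphotyrosine-binding adaptor, rose by 4.21 (adjusted p = 0.00665), and NEXN, an actin-binding protein, by 4.14 (adjusted p = 0.00857). LIX1L (3.44), MAP1LC3A, a member of the LC3 family of autophagy proteins (3.15), the non-coding LINC01444 (2.41), and BTBD19 (1.92) were higher as well. ACSL4, an enzyme that activates arachidonic acid, had 10.90 (MDAMB157) to 11.82 (BT549) in basal B, against 9.39 (HCC1187) to 10.86 (BT20) in basal A (1.21, SE 0.24, adjusted p = 0.0222), a small but separated difference.

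Steroid receptor and luminal factor transcripts were lower in basal B. ESR1, the estrogen receptor alpha gene, had 3.56 (MDAMB231), 3.87 and 6.27 (CAL120) in basal B, against 7.32 (HCC1187), 9.05 and 10.64 (BT20) in basal A. The classes did not overlap in ESR1 (-4.82, SE 0.51, adjusted p = 0.000434). All 4 of its probe sets had lower basal B means, by differences of -4.83 to -0.21 (mean -2.54), and the highest of the other panel lines, T47D, was at 12.73. FOXA1, a pioneer factor of the luminal lineage, had 4.0 (MDAMB231), 5.36 and 8.36 (MDAMB436) in basal B, against 8.61 (HCC1187), 11.77 and 12.46 (BT20) in basal A (-5.22, SE 0.76, adjusted p = 0.00440). These were the 2 called among 9 luminal genes tested (median difference -1.71). PGR, the progesterone receptor, was not tested because its signal was low in both classes (2.53 to 3.29 in basal B, 2.03 to 2.96 in basal A).

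Receptor tyrosine kinases moved in both directions. Of 24 tested, 2 were higher and 1 lower with all 15 lines, and 2 were higher and 2 lower without HCC38. DDR2, a collagen receptor of mesenchymal cells, had 5.94 (CAL120), 11.69 and 12.32 (HS578T) in basal B, against 3.88 (HCC1806), 5.30 and 6.92 (HCC1187) in basal A (5.01, SE 0.97, adjusted p = 0.0180). HCC38 was as high in DDR2 (11.11) as other basal B lines, while CAL120 and MDAMB231 (6.43) were in the basal A range. The epithelial paralogue DDR1 differed by -1.50 (adjusted p = 0.0826, and adjusted p = 0.0111 without HCC38). ERBB3, the HER3 partner of ERBB2, had 4.74 (HS578T), 6.47 and 12.28 (HCC38) in basal B, against 10.78 (HCC1806), 11.44 and 12.08 (HCC70) in basal A (-4.32, SE 0.89, adjusted p = 0.0242). ERBB2 differed by -0.69 (adjusted p = 0.431) and EGFR by -1.02 (adjusted p = 0.123), and the classes overlapped in each gene. EGFR passed with array quality as a term (-1.17, adjusted p = 0.0201).

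Basal lineage and differentiation genes added further decreases. In the basal lineage list 1 of 10 tested, VGLL1, was lower with all 15 lines, and 3 were without HCC38, with TRIM29 (-3.97, adjusted p = 0.0359) and the GABA receptor subunit GABRP (-4.54, adjusted p = 0.0359). GABRP also passed without HCC1806 (adjusted p = 0.0274) or without BT20 (adjusted p = 0.0466). Of 15 S100 and keratinocyte differentiation genes, 4 were lower and 0 higher with and without HCC38. S100A14 (-5.55, adjusted p = 0.0221), a calcium-binding protein, and LCN2 (-4.99, adjusted p = 0.0431), the iron-scavenging lipocalin 2, were among them. IVL (-3.51, adjusted p = 0.0215) and SCEL (-2.88, adjusted p = 0.0242), which encode the cornified envelope proteins involucrin and sciellin, were the others.

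Stem-cell surface genes gave 0 calls in 11 tested with all 15 lines, and 2 were lower without HCC38, CD24 and ALDH1A3, an aldehyde dehydrogenase (-1.83, adjusted p = 0.0390). CD24, a sialoglycoprotein used with CD44 to sort stem-like cells, had 9.50 (HS578T), 11.39 and 13.17 (HCC38) in basal B, against 12.24 (HCC1806), 13.38 and 13.71 (MDAMB468) in basal A (-1.80, adjusted p = 0.0590, and -2.06 with adjusted p = 0.0123 without HCC38). CD24 also passed without HCC1806 (-1.96, adjusted p = 0.0485). CD44, a hyaluronan receptor, chosen after its values were seen, had 11.73 to 12.80 in basal B and 6.72 (HCC1187) to 13.01 (HCC1806) in basal A (0.86, adjusted p = 0.608). The probe sets of CD44 disagreed, with differences of -2.16 to 0.97. PROCR, the endothelial protein C receptor, differed by 2.07 (adjusted p = 0.0838). It passed without HCC1143 (adjusted p = 0.0281) or without HCC1806 (adjusted p = 0.0318).

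Signalling lists held few calls, and at the shares of all genes tested (0.601% higher, 1.10% lower) counts of 0 or 1 say little. Of 19 TGF-beta and activin genes 0 were called, with a median difference of 0.70, and TGFB2, a ligand of the pathway, differed by 1.59 (adjusted p = 0.375). Of 16 YAP and TAZ genes with targets 0 were called, and CCN2, a secreted target, had 11.03 to 13.50 in basal B and 3.62 (BT20) to 12.47 (HCC1143) in basal A (3.42, adjusted p = 0.119). In the WNT list 1 of 21 was called, the ligand WNT7B, which had 3.22 to 7.05 in basal B and 6.79 to 8.52 in basal A (-2.51, adjusted p = 0.0287). LEF1, a nuclear effector of WNT signals, was higher without HCC38 (4.32, adjusted p = 0.0201), and 1 of its 3 probe sets did not share that direction. LEF1 also passed without BT549 (adjusted p = 0.0375) or without BT20 (adjusted p = 0.0466). Of 20 cytokine genes 1 was lower, the mucosal chemokine CCL28 (-3.60, adjusted p = 0.0362). IL6 passed without HCC38 (4.99, adjusted p = 0.0213) or without HCC1143 (5.13, adjusted p = 0.0254): basal B had 5.20 (HCC38), 10.90 and 13.07 (MDAMB436), against 3.47 (BT20), 4.96 and 10.99 (HCC1143) in basal A. In TGFB2, CCN2 and IL6 the highest basal A line was HCC1143.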

How the data were processed

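Messenger RNA of 58 cell lines was measured on 1 custom Affymetrix array each. The deposited table holds log2 signals of 52377 probe sets, made by the authors with RMA in Affymetrix Power Tools per the submitters' processing notes, whose versions are not given in the sources used here. Values ran from 1.53 to 14.77, and the number of arrays limits the precision. Probe sets with 1 gene (35184, of which 35134 matched RefSeq) were kept, 374 with several and 16819 with none were not, and for each of 19800 genes the probe set of highest mean over the 15 lines was used. Genes above the array median in at least 3 of the 15 lines were tested with limma 3.58.1 (R 4.3.3; lmFit, eBayes with trend and robust), with Benjamini-Hochberg adjustment over all of them. The fit was tried on simulated data, drawn independently for each gene with normal spread and, for some genes, the same shift in all basal B lines. Correlated genes and a line going against its class, such as HCC38, were not simulated, so that trial does not cover them. The members, lists and alternatives were chosen with earlier results of these data known. Genes were named by rule: the 4 markers, the 10 highest and 10 lowest called differences without overlap, up to 5 members per list of 36 lists by adjusted p with any passing against the list's median, hormone and growth factor receptors, and the 5 genes of largest SD in each class. Others were chosen after their values were seen, among them CLDN3, CLDN4, CD44, the microRNA hosts, HCLS1 and IKZF1. PTPRC and CD3E were not tested and also fall outside the rule. Genes without a single-gene probe set were not analysed here. Sequences come from RefSeq tables. CDH1, EPCAM, ST14 and KLK8 have no promoter entry printed. No replicate exists for a line.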

Additional observations from a re-analysis of the deposited data

Results flagged for a closer look

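Among 186 groups tested, each a named gene in 1 class, 39 had a highest or lowest line that stood apart. The gap of that line to the nearest other line exceeded Dixon's critical share of the range (0.526 for 8 lines, 0.568 for 7). Chance flags about 1 in 20 among independent groups that were not chosen by their values. The genes here were chosen in part from these same data and are not independent. That rate is therefore no yardstick for the 39 flags or for the share of any line, and the counts are descriptive. HCC38 accounted for 22 of the flags. It was the lowest basal B line for ZEB1 (4.03), and the highest for CLDN3 (10.06), CLDN8 (8.12), MARVELD3 (9.64), CRB3 (7.56), ESRP1 (12.38), GRHL2 (9.59), KRT15 (12.45), ST14 (10.20), RAB25 (12.43), KLK5 (13.35), KLK8 (7.30), PRSS8 (9.24), DAPP1 (4.93), ERBB2 (11.76), S100A14 (12.28), IVL (7.04), MIR200CHG (8.69), MIR205HG (9.87), GABRP (6.73), ITGB6 (11.74) and ALOX15 (5.63). In basal B, CAL120 stood apart for ESR1 (6.27) and MDAMB231 for CCL28 (5.97). In basal A, HCC1143 stood apart for ZEB1 (7.21), KRT5 (6.04) and COL8A1 (8.39). HCC1187 did for CLDN7 (10.86), COL1A2 (4.51), POSTN (4.66), MIR205HG (7.36) and CD44 (6.72). HCC1806 did for ELF3 (7.61), GJA1 (12.30) and ZEB2 (6.77), HCC1937 for KRT19 (7.27) and SPARC (7.21), and BT20 for DAPP1 (5.71) and LEF1 (7.94). The cause was not tested.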

How the results depend on the processing

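Leaving out 1 line at a time gave 34 to 189 genes higher and 66 to 339 lower in basal B, highest without HCC38 and lowest without MDAMB468, and 122 were higher without HCC1143. Several genes that missed the threshold with all 15 lines also passed without a line other than HCC38. Among them were VIM without HCC70, ZEB2 without HCC1395, CAVIN1 without HCC1806, KRT7 without MDAMB231 and ALOX15 without HCC1143. TIMP2 passed without HCC1937 or HCC1143, and COL1A2 without MDAMB436 or MDAMB157. The higher count was 49 with no filter, and the lower count was 95 with the mean of MDAMB157 and MB157. With MB157 in place of MDAMB157 the counts were 10 and 21, with all 58 lines in the fit 21 and 48, at adjusted p under 0.01 they were 15 and 43, and with the exact rank-sum test 0 and 0 (smallest adjusted p 0.0753, 1785 genes at unadjusted p under 0.05, against 2110 in limma). With 8 and 7 lines the exact rank-sum test cannot give an unadjusted p below 0.000311. Only the genes without overlap (22 and 33) reach it, too few to pass the adjustment over 13322 genes. Those counts of 0 thus reflect this floor. The VIM difference was 2.36 to 3.27 over the lines left out (adjusted p 0.0106 to 0.106) and 2.92 with the mean of probe sets (adjusted p = 0.0449), where it passed. ZEB1 was 5.70 to 6.72 over the lines left out and 3.27 with the mean of probe sets, CDH1 -5.95 to -4.72 and CLDN7 -6.23 to -5.20. CDH1 missed the threshold without 1 of 7 lines, at most with adjusted p = 0.0588. With MB157 in place of MDAMB157, ZEB1 (5.12), CDH1 (-4.36) and CLDN7 (-4.68) missed it, as did CDH1 with the mean of both (-4.77). With all 58 lines ZEB1 (5.94, adjusted p = 0.0665) and CDH1 (-5.17, adjusted p = 0.116) missed it, and with the rank-sum test ZEB1 (5.94), CDH1 (-5.17) and CLDN7 (-5.53) did. The cause of the misses outside the rank-sum test was not tested. List medians near 0 changed sign: WNT to -0.0304 with MB157 in place of MDAMB157 and -0.0881 to 0.399 over the lines left out, lipid metabolism to -0.0450 with array quality as a term and -0.136 to 0.0280, and glutathione and NRF2 to -0.0106 and -0.0329 with MB157 used alone or averaged and -0.127 to 0.263. Of the 35184 single-gene probe sets 0 carried a name mark for cross-hybridisation, so leaving out marked ones changed nothing and is no check of it. No paired analysis was made, because each line stands for its own tumour and the design pairs no lines of the 2 classes.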

Other observations

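Other gene groups held 0 or 1 calls, where 0.601% of all genes tested were called higher and 1.10% lower, so that a count of 0 in a list of this size says little. Of 20 proliferation genes 0 were called (median difference -0.06), and the mean distance of these genes from their medians was -0.08 to 0.35 in the basal B lines other than HCC38, -0.47 in HCC38 and -0.28 to 0.21 in basal A. Interferon-induced genes gave 0 calls in 19 tested, with a median of -0.33 that turned to 0.04 without HCC38. Antigen presentation gave 0 calls in 14 tested, with 11 differences below 0 (median -0.63). In the glycolysis and hypoxia list BNIP3, a mitophagy receptor induced by hypoxia, was the 1 call of 19 (1.55, adjusted p = 0.0410). In the glutathione and NRF2 list GPX8, a peroxidase of the endoplasmic reticulum, was the 1 call of 18 (0.90, adjusted p = 0.0394), with no overlap between the classes. The calls of BNIP3 and GPX8 were lost in 10 and 11 of the 15 cases with 1 line left out, and with the mean of probe sets. ALOX15, a lipoxygenase, was lower without HCC38 (-3.04, adjusted p = 0.0387).

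Some of the genes with the largest SD within a class were high and low in both classes or varied in 1 class. CDKN2A, which encodes the p16 inhibitor of the cell cycle, was at or under 3.18 in HCC38, HCC1395, HS578T and MDAMB231 and at or above 11.48 in the other basal B lines. In basal A it was at 2.94 in HCC1806 and 3.19 in BT20 and at or above 10.23 in the other lines. MTAP, its neighbour on chromosome 9 and an enzyme of methionine salvage, was at 2.30 in HCC38, 2.40 in MDAMB231 and 2.18 in HCC1395 and at or above 8.65 in the other basal B lines and 8.78 in all basal A lines. GSTP1, a glutathione transferase, was at 13.15 to 13.69 in basal B, against 4.48 (HCC1937), 13.48 and 13.74 (HCC1806) in basal A, with an SD of 0.20 in basal B and 4.30 in basal A.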
